A study of Caenorhabditis elegans with 18 samples.

Results

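The comparison described here is the strain by cold difference: the cold response of worms without a normal IRE-1 minus the cold response of wild-type worms, for each gene. It was chosen as the contrast (ire-1 cold − ire-1 control) − (WT cold − WT control), and it used 12 of the 18 libraries of the series. The 4 groups had 3 libraries each. The ire-1 cold and ire-1 control groups were strain CF2473 with the genotype ire-1(ok799), a deletion allele. The WT cold and WT control groups were strain N2. All worms were raised from the egg at 15 °C to day 1 of adulthood. Control worms were collected at that point, and cold worms were held at 2 °C for a further 24 h. Cold worms were therefore also 24 h older, and in either strain cold and the added time cannot be told apart. The mutation was present in the whole animal, and RNA came from whole worms. The other 6 libraries, WT control and WT cold of a separate experiment 2, served only to pick cold-responsive genes independently.

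IRE-1 is a sensor of misfolded protein in the membrane of the endoplasmic reticulum (ER). On stress it cuts the xbp-1 transcript, which RTCB-1 then ligates, and the XBP-1 protein made from it turns on chaperones such as HSP-4 and other parts of the secretory pathway. PEK-1 and ATF-6 are the sensors of the parallel branches. Many of the proteins that enter the worm's secretory pathway are made in the intestine, among them digestive proteases, lysozymes and yolk. Cold also stiffens membranes, and worms are known to answer it in part through the fatty acid desaturases FAT-5, FAT-6 and FAT-7.

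Values below are CPM, counts per 1000000 reads counted after trimmed-mean (TMM) scaling, and differences are on the log2 scale with the standard error of the fit. Total counts were 20621965 to 29518450 per library, so 1 CPM stood for at least 20.8 reads. The libraries differed in sperm RNA across the groups. The summed level of 105 sperm genes, 95 of which passed the filter on low counts, was 236 to 2793 CPM in ire-1 cold, 279 to 3345 CPM in ire-1 control, 197 to 936 CPM in WT cold and 197 to 3352 CPM in WT control. The high libraries were ire-1 cold 2, ire-1 control 1, WT cold 2 and WT control 1, and results were also computed without these 4. In RNA from whole worms, fewer cells of a type and less RNA per cell cannot be told apart.

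The targeted gene was read first. ire-1 had 59.5, 41.3 and 51.6 CPM in ire-1 cold and 36.7, 53.9 and 53.1 CPM in ire-1 control, against 192, 184 and 187 CPM in WT cold and 92.9, 91.3 and 168 CPM in WT control. All 6 mutant libraries lay below all 6 WT libraries. The strain difference was −1.89 ± 0.26 in the cold and −1.29 ± 0.26 in the control. The counts cover the whole gene, and no source used here gives the part that ok799 removes. The strain by cold difference of ire-1 itself was −0.59 ± 0.36 (edgeR quasi-likelihood test, unadjusted p = 0.124).

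No gene passed the test of the strain by cold difference. Of 14344 genes tested with edgeR's quasi-likelihood test, 0 had a Benjamini-Hochberg adjusted p under 0.05 (0.0% called), and the smallest adjusted p was 0.996. At an unadjusted p under 0.05 there were 197 genes (1.37%) in all. In simulated counts, 5.04% of genes with no difference reached that p, and the observed share was below it. The simulation held no variation shared between libraries, as these libraries do, so it cannot decide whether 197 was an excess. The 197 were uneven in direction. Above 0, meaning a more positive cold response in the mutant, lay 174 (1.21%), and 23 lay below 0 (0.16%). The differences were above 0 in 59.0% of all genes. The cold-minus-control changes of the libraries did not overlap between the strains in 66 genes with ire-1 above WT (0.46%) and in 16 with ire-1 below WT (0.112%). Libraries of the strains with the same replicate number deviated together within each condition, and so did some with different numbers. A fit with the replicate number as a block within condition also called 0 genes. It had 835 at an unadjusted p under 0.05, with 621 above 0 and 214 below 0. Without WT control 3 there were 955 genes, 402 above and 553 below, so the balance of directions also rested on that library. Without the 4 sperm-rich libraries there were 373, with 214 above and 159 below. The count was 324 without ire-1 control 1, 128 without WT control 2, 126 without WT cold 1 and 123 without ire-1 control 3.

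The 174 genes above 0 were chosen by the contrast, so the values here describe them and are no test of it. Their median cold response was −0.06 in ire-1 and −1.55 in WT, beside −0.04 in ire-1 and −0.22 in WT over all tested genes. The cold response was below 0 in ire-1 for 96 of the 174 and below 0 in WT for 169, beside 54.2% of all genes in ire-1 and 60.3% in WT. The strain difference was a median of 0.40 in the cold and −1.04 in the control, and in the control ire-1 lay below WT for 169 of the 174, beside 53.1% of all genes. By these medians, ire-1 control lay closer to ire-1 cold than to WT control. For 74 of the 174 genes the 3 WT control libraries lay above the other 9, a pattern found in 400 of all tested genes (2.79%). For 34 of the 174 genes the 3 WT cold libraries lay below the other 9, a pattern found in 154 of all tested genes (1.07%). The contrast itself favours both patterns among genes chosen by its p and sign. It also favours the medians and directions given above. These values thus describe which group carried the difference and give it no separate support. The separate tests of the cold response called 8 genes in ire-1 (0.0558%), all with higher levels in the cold, and 112 in WT (0.781%), of which 86 had lower levels in the cold (0.6%). Neither these counts nor their directions held across settings. In ire-1, DESeq2 called 165 genes higher and 177 lower in the cold, and edgeR without the 4 sperm-rich libraries called 75 higher and 112 lower. With the sperm level as a covariate, edgeR called 229 higher and 465 lower in ire-1, and 1082 higher and 1602 lower in WT. When 1 library was left out, the counts ran from 0 to 50 in ire-1, highest without WT control 1, and from 0 without WT cold 3 to 931 without WT control 3 in WT. No gene below is described by these calls.

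**Figure D1:**
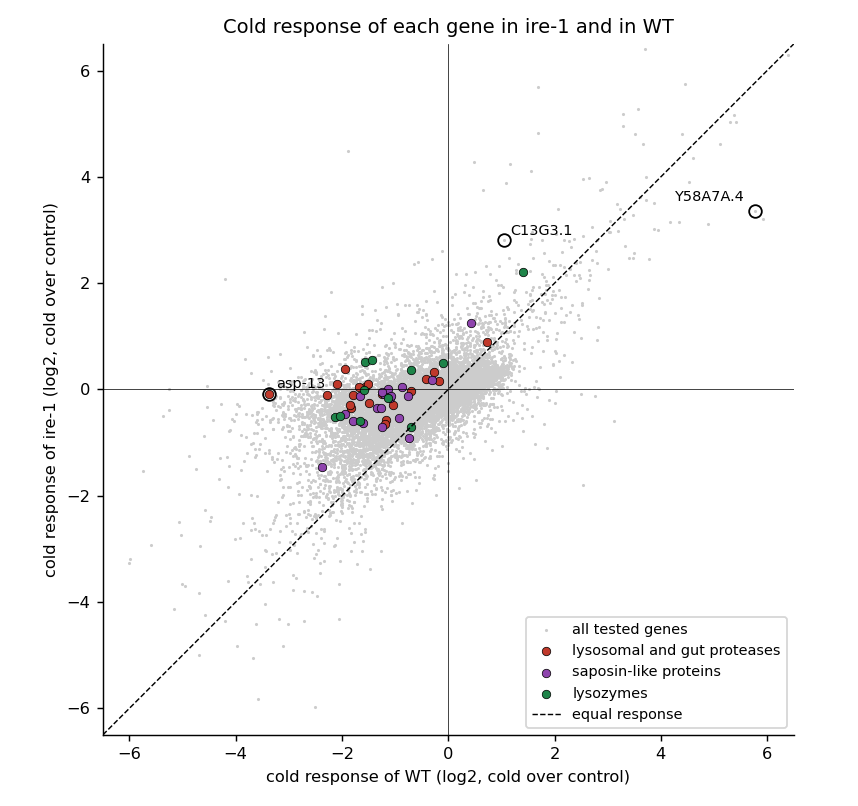
Cold response of each gene in ire-1 (vertical axis) and in WT (horizontal axis), both log2 of cold over control from the 12 libraries; each grey point is a tested gene (9 genes lie outside the axes), coloured points are 3 gene lists, and the dashed line marks equal responses. All 22 tested proteases (red) lie above the dashed line, most of them left of 0 for WT and close to 0 for ire-1, and asp-13, C13G3.1 and Y58A7A.4 are circled.

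Lysosomal and gut proteases were the gene list with the most members at an unadjusted p under 0.05. They are the aspartyl (asp) and cathepsin-type cysteine (cpr, cpl, cpz) proteases that digest food in the gut lumen and break down cell contents in lysosomes. Of 29 genes in the table, 22 passed the filter on low counts. The strain by cold difference was above 0 for 22 of these 22 and reached an unadjusted p under 0.05 in 14, against 1.21% of all genes in that direction, while 0 were called after adjustment. The median was 1.21, beside 0.12 for all tested genes, and it was between 0.69, without WT control 2, and 1.51 when each library was left out in turn, and 1.09 without the 4 sperm-rich libraries. The median cold response of the list was −0.06 in ire-1 and −1.37 in WT, and −1.18 in the separate WT libraries of experiment 2. The summed level of the list was 4399 to 5892 CPM in ire-1 cold and 5014 to 5969 CPM in ire-1 control, against 4730 to 6232 CPM in WT cold and 8992 to 21993 CPM in WT control. The ire-1 cold, ire-1 control and WT cold ranges overlapped, and the 3 WT control libraries stood above all others.

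Among the proteases, 2 arrangements of the 4 groups were seen. In the commoner one, the 3 WT control libraries lay above the other 9, for 12 of the 22 tested proteases, beside 2.79% of all tested genes. cpr-9, a cathepsin B-like protease on chromosome V (12003053 to 12004584, WBcel235), had 359, 373 and 289 CPM in ire-1 cold and 320, 410 and 362 CPM in ire-1 control, against 441, 478 and 602 CPM in WT cold and 1827, 2480 and 990 CPM in WT control. The mutant's levels overlapped between conditions, and WT control exceeded WT cold in every pair of libraries. Its cold response was −0.10 ± 0.29 in ire-1 and −1.80 ± 0.30 in WT, a difference of 1.70 ± 0.41 (edgeR unadjusted p = 0.0017, adjusted p = 0.996). asp-1, an intestinal aspartyl protease, had 1233, 1471 and 846 CPM in ire-1 cold and 1476, 1063 and 890 CPM in ire-1 control, against 841, 1256 and 1023 CPM in WT cold and 3394, 4250 and 1612 CPM in WT control. Here too 9 libraries shared a range that all 3 WT control libraries exceeded, and the strain by cold difference was 1.62 ± 0.50. cpl-1, the worm cathepsin L, which processes yolk and eggshell proteins, had 821, 862 and 773 CPM in ire-1 cold, 846, 905 and 783 CPM in ire-1 control, 838, 815 and 881 CPM in WT cold and 2282, 2240 and 1107 CPM in WT control. Its difference was 1.11 ± 0.34. The same arrangement held for cpr-8 (1.74 ± 0.51), cpr-1 (2.18 ± 0.72) and the cathepsin B-like cpr-6 (0.99 ± 0.36). It also held for cpz-1, a cathepsin Z (0.60 ± 0.28), whose ire-1 cold libraries lay below the other 9. The cold response of cpz-1 in ire-1 was −0.58 ± 0.20. cpl-1, cpr-1, cpz-1 and asp-2 were named after their values were seen.

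In the other arrangement the 3 WT cold libraries lay below the other 9. It held for 2 of the 22 tested proteases, asp-13 and asp-4, beside 1.07% of all tested genes. asp-13, an aspartyl protease on chromosome V (8641602 to 8643193), had the smallest p of all tested genes. It had 188, 121 and 98.0 CPM in ire-1 cold and 163, 152.4 and 114 CPM in ire-1 control, against 5.20, 25.6 and 10.7 CPM in WT cold and 102, 160 and 166 CPM in WT control. The control levels of the strains overlapped, with a strain difference of 0.01 ± 0.47, and the 3 WT cold libraries lay far below everything else. The cold response was −0.08 ± 0.47 in ire-1 and −3.37 ± 0.52 in WT, and −3.51 in the WT libraries of experiment 2. The strain by cold difference was 3.29 ± 0.69 (edgeR unadjusted p = 0.000617, adjusted p = 0.996), with all 9 mutant cold-minus-control pairs above all 9 WT pairs. DESeq2 gave asp-13 an adjusted p of 0.017, the single adjusted call of any setting tried, and over all settings its adjusted p ran from 0.017 to 1.0.

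asp-4 met both arrangements. asp-2 met the WT control arrangement, with its lowest group mean in WT cold. asp-4, a cathepsin D-like protease known for its part in necrotic cell death, had 245, 182 and 187 CPM in ire-1 cold and 216, 306 and 258 CPM in ire-1 control, against 109, 180 and 165 CPM in WT cold and 489, 699 and 429 CPM in WT control. WT thus held both the highest and the lowest levels, with the mutant between them in both conditions, although ire-1 cold 2 and WT cold 2, at 182 and 180 CPM, were close. The difference was 1.49 ± 0.35. asp-2 had 227, 275 and 168 CPM in ire-1 cold and 301, 229 and 195 CPM in ire-1 control, against 34.1, 189 and 90.0 CPM in WT cold and 618, 582 and 329 CPM in WT control, a difference of 2.17 ± 0.71.

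**Figure D2:**
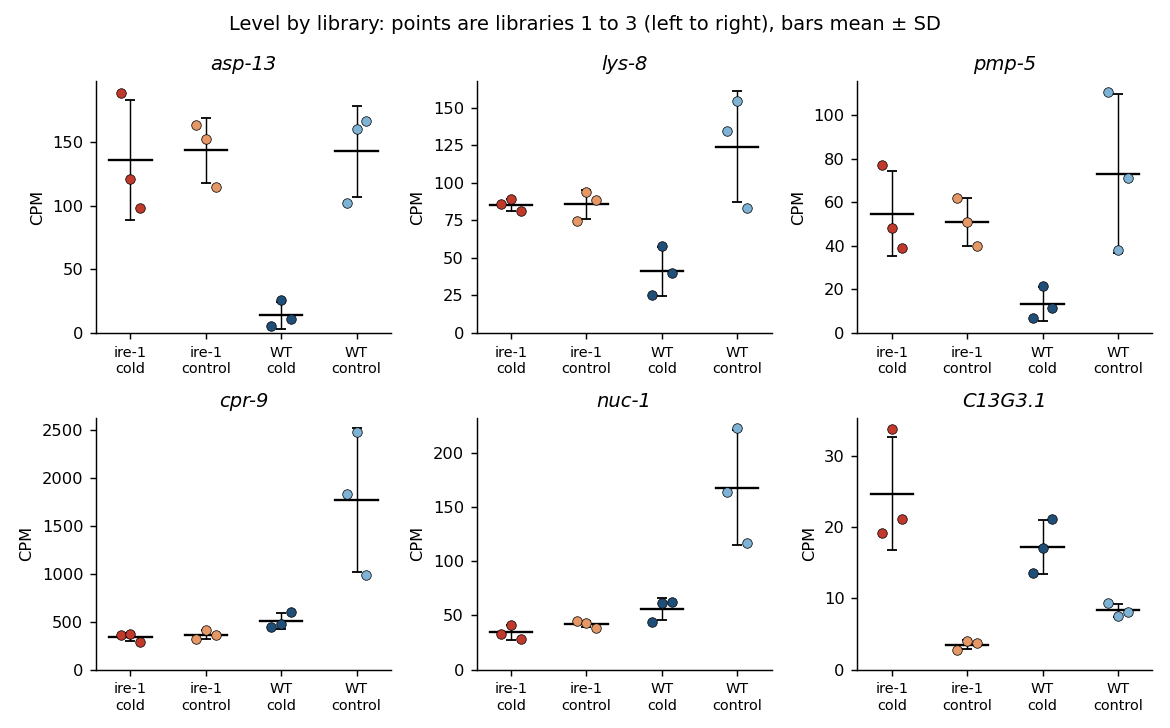
Levels in CPM (vertical axes, each from 0) of 6 genes in the 3 libraries of ire-1 cold, ire-1 control, WT cold and WT control; points are libraries, and black bars are the mean ± SD. For asp-13, lys-8 and pmp-5 the WT cold libraries lie lowest, for cpr-9 and nuc-1 the WT control libraries lie highest, and for C13G3.1 the ire-1 control libraries lie lowest.

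Lysozymes digest bacterial cell walls. Over all tested genes, 59.0% lay above 0, and 1.21% lay above 0 at an unadjusted p under 0.05. These shares also stand beside the lists that follow. Of 16 genes in the table, 11 were tested, 10 had a difference above 0 and 4 reached an unadjusted p under 0.05, with a median of 1.07 that became 1.90 without WT cold 2 and 1.65 without the 4 sperm-rich libraries. The median cold response was 0.00 in ire-1 and −1.44 in WT. lys-8, on chromosome II (5586178 to 5587651), had 85.9, 89.1 and 81.0 CPM in ire-1 cold and 74.8, 93.6 and 88.4 CPM in ire-1 control, against 25.3, 58 and 40.2 CPM in WT cold and 135, 155 and 83.3 CPM in WT control. The mutant libraries kept to a narrow range in both conditions, with WT cold below that range and overlap only between WT control 3 and the mutant. The difference was 1.59 ± 0.41 (edgeR unadjusted p = 0.0028). ilys-5, an invertebrate-type lysozyme, had 216, 253 and 154 CPM in ire-1 cold, 336, 276 and 266 CPM in ire-1 control, 169, 366 and 224 CPM in WT cold and 1019, 1349 and 742 CPM in WT control, and its difference was 1.54 ± 0.44. lys-4 had a difference of 2.08 ± 0.66, and lys-1, named after its values were seen, 1.61 ± 0.58.

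The rule for named genes also took nuc-1, bgal-2 and lipl-5. nuc-1 encodes a lysosomal DNase II that digests DNA of dead cells and of food. It had 32.8, 41.6 and 28.6 CPM in ire-1 cold and 44.7, 43.2 and 38.8 CPM in ire-1 control, against 43.8, 61.5 and 62.4 CPM in WT cold and 164, 222 and 117 CPM in WT control. Again WT control stood above the other 9 libraries, and the difference was 1.29 ± 0.34 (edgeR unadjusted p = 0.00334). bgal-2, a β-galactosidase family member, had a difference of 1.79 ± 0.47, with WT cold below the other 9 libraries at 3.57 to 5.59 CPM and WT control at the top at 16.1 to 31.8 CPM. lipl-5, a lysosomal lipase family member, had 1.57 ± 0.63. It was the single member at an unadjusted p under 0.05 among 21 tested lipases, of which 14 had a difference above 0. The lipase median was 0.37, and it was 0.0013 without the 4 sperm-rich libraries, −0.13 without WT control 2 and −0.08 without ire-1 cold 2.

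Saposin-like proteins, small proteins that act on membranes, some of them as gut antimicrobials, had 18 of 19 tested members above 0, 4 of them at an unadjusted p under 0.05, and a median of 0.95, or 0.49 without WT control 2. The median cold response was −0.16 in ire-1 and −1.21 in WT. Their summed level was 616 to 746 CPM in ire-1 cold and 717 to 849 CPM in ire-1 control, against 819 to 1187 CPM in WT cold and 1446 to 3102 CPM in WT control. The WT cold sums lay above the ire-1 cold sums and overlapped those of ire-1 control. The strain difference had a median of −0.34 in the cold and −1.42 in the control. The leading members were spp-14 (0.94 ± 0.34), spp-5 (0.95 ± 0.35) and spp-3 (1.12 ± 0.42).

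C-type lectins, a large family of secreted carbohydrate-binding proteins, had 76 of 95 tested members above 0, 7 of them at an unadjusted p under 0.05, and a median of 0.75. That median was 0.26 without ire-1 cold 2 and 0.35 without WT control 1. clec-150 had a difference of 1.11 ± 0.36, clec-50 of 1.49 ± 0.50 and clec-63 of 1.23 ± 0.45. Antimicrobial peptides and thaumatins had a median of 0.79 over 37 tested members, which became −0.09 without the 4 sperm-rich libraries, −0.16 without WT control 1 and −0.11 without ire-1 cold 2. Within that list, the thaumatin thn-2 had 32.2, 27.4 and 13.7 CPM in ire-1 cold and 24.2, 20.4 and 13.4 CPM in ire-1 control, against 6.55, 23 and 19.5 CPM in WT cold and 76.3, 158 and 45.4 CPM in WT control. WT control was above the 9 other libraries, and the difference was 2.85 ± 0.78, with 2.65 ± 0.88 for thn-1. M28.10 and F28H7.3, which met the rule for leading genes, had differences of 1.82 ± 0.44 and 1.20 ± 0.34.

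Markers of the intestine, a list that shares members with the proteases, had differences mostly above 0. Of 17 intestinal identity and brush border genes found in the table, 0 were at 0 in every library, 16 were tested and 15 had a difference above 0, 4 of them at an unadjusted p under 0.05, with a median of 1.00 that became 0.42 without the 4 sperm-rich libraries, 0.55 without ire-1 cold 2 and 0.58 without WT control 1. This list also holds the proteases asp-1 and cpr-6, both among the 4 genes at that p. Its summed level was 2185 to 3135 CPM in ire-1 cold and 2385 to 3224 CPM in ire-1 control, against 2149 to 2618 CPM in WT cold and 3648 to 7231 CPM in WT control. Of the list's mean of 5812 CPM in WT control, asp-1 held 3085 CPM and cpr-6 held 1239 CPM, which is most of it. A sum without these proteases was not computed, and the part of the markers in the result was not tested. pept-1, the gut's main peptide transporter, had a difference of 1.17 ± 0.45, ges-1, the gut esterase, 1.46 ± 0.60, and act-5, the actin of the microvilli, 1.13 ± 0.53; the last pair was named after its values were seen.

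Peroxisomal β-oxidation, the pathway that shortens very long fatty acids and makes the ascaroside pheromones, had 20 of 21 tested genes above 0, 5 of them at an unadjusted p under 0.05, and a median of 0.65. The median was 0.32 without the 4 sperm-rich libraries, 0.42 without WT cold 1 and 0.43 without WT control 1. In 11 of the 21 genes the WT control libraries lay above the other 9, beside 2.79% of all tested genes. The median cold response was −0.68 in ire-1 and −1.43 in WT, so here the mutant's levels were lower in the cold as well. daf-22, the thiolase of the last step, had 12.2, 18.3 and 11.2 CPM in ire-1 cold and 25.4, 31.4 and 25.6 CPM in ire-1 control, against 14.3, 18.7 and 19.8 CPM in WT cold and 85.5, 127 and 56.7 CPM in WT control. Cold and control did not overlap in either strain, and the response was −0.98 ± 0.30 in ire-1 and −2.35 ± 0.31 in WT, a difference of 1.37 ± 0.42 (edgeR unadjusted p = 0.00799). maoc-1 and dhs-28, which act before it in the same pathway and were named after their values were seen, had differences of 0.84 ± 0.36 and 0.98 ± 0.38, and ctl-2, the peroxisomal catalase, 1.10 ± 0.41. pmp-5, a half-transporter of the peroxisomal ABC family, had the WT cold arrangement: 76.9, 48.4 and 39.2 CPM in ire-1 cold and 62.1, 50.8 and 39.9 CPM in ire-1 control, against 6.75, 21.7 and 11.6 CPM in WT cold and 110, 37.9 and 71.2 CPM in WT control. Its difference was 2.56 ± 0.67, and its cold response was −2.45 ± 0.49 in WT and −3.13 in WT of experiment 2.

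Genes of fat composition showed a smaller shift. The 17 polyunsaturated and branched-chain fatty acid enzymes all had a difference above 0, with a median of 0.48 and 1 at an unadjusted p under 0.05, let-767, a reductase of the branched-chain pathway, at 0.48 ± 0.19. The median was 0.19 without WT control 1, 0.29 without ire-1 cold 2 and 0.26 without the 4 sperm-rich libraries. elo-6, an elongase of branched-chain fatty acids, had 1.06 ± 0.72. The list of Δ9 desaturases and their regulators had a median of 0.01, with 7 of 13 genes above 0 and 0 at an unadjusted p under 0.05. fat-7 had 44.7, 55 and 29 CPM in ire-1 cold and 67.0, 46.1 and 30.8 CPM in ire-1 control, against 42.1, 70.1 and 60.6 CPM in WT cold and 188, 85.3 and 78.0 CPM in WT control. WT control lay above the rest, and the difference was 0.86 ± 0.56 (edgeR unadjusted p = 0.155). fat-5 had 0.56 ± 0.61 and fat-6 0.71 ± 0.90, and without the 4 sperm-rich libraries the value for fat-6 was −0.07. fat-6 and fat-7 are close copies, so reads may have been split between them. Among 23 tested genes of fat synthesis and lipid droplets, 8 had a difference above 0, 1 of them at an unadjusted p under 0.05, and the median was −0.10. That gene was dgat-2, an enzyme of triglyceride synthesis, at 1.93 ± 0.71, but its cold response in WT was −1.58 ± 0.51 here and 1.80 in experiment 2. dsc-4, the worm's lipid transfer protein for yolk particles, had 1.14 ± 0.58.

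The ER stress sensors had differences on both sides of 0. Among the 6 ER stress sensors and branch factors, 2 had a difference above 0 and 0 reached an unadjusted p under 0.05, with a median of −0.13. The values were 0.19 ± 0.48 for xbp-1, −0.13 ± 0.41 for pek-1, −0.59 ± 0.43 for atf-6, 0.52 ± 0.91 for atf-4 and −0.14 ± 0.23 for rtcb-1. xbp-1 counts cover spliced and unspliced forms together. atf-4, the transcription factor of the PEK-1 branch, had a cold response of −2.11 ± 0.67 in ire-1 and −2.64 ± 0.68 in WT.

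Among 24 tested ER chaperones and disulfide isomerases, 19 had a difference above 0 and 0 reached an unadjusted p under 0.05. Their median was 0.47 over the 12 libraries and −0.11 without the 4 sperm-rich libraries, −0.04 without WT control 1 and 0.28 without ire-1 control 1. hsp-4, the worm BiP that the IRE-1 branch induces, had 450, 342 and 444 CPM in ire-1 cold and 278, 453 and 432 CPM in ire-1 control, against 521, 572 and 456 CPM in WT cold and 1159, 519 and 406 CPM in WT control. hsp-3, the second BiP, had 177, 224 and 185 CPM in ire-1 cold and 304, 216 and 221 CPM in ire-1 control, against 334, 361 and 200 CPM in WT cold and 984, 356 and 308 CPM in WT control. For both, WT control 1 was far above all other libraries, and the remaining groups overlapped in part. The differences were 0.51 ± 0.50 for hsp-4 (edgeR quasi-likelihood test, unadjusted p = 0.323) and 0.54 ± 0.57 for hsp-3 (edgeR unadjusted p = 0.364), and without the 4 sperm-rich libraries they were −0.15 and −0.05. pdi-6, a disulfide isomerase, had 0.92 ± 0.56 and also its highest level, 460 CPM, in WT control 1. Of 33 tested genes of ER-associated degradation and translocation, 15 had a difference above 0, 1 of them at an unadjusted p under 0.05, and the median was −0.02. The genes of that list with the smallest p were the translocon subunits trap-1, trap-2 and trap-3, which help secreted proteins enter the ER, at 0.75 ± 0.36, 0.86 ± 0.38 and 0.58 ± 0.27. The ER cyclophilin cyn-5 had 0.68 ± 0.33. fkb-5, an ER prolyl isomerase, had higher levels in the cold in both strains, with 20.5, 26.9 and 27.6 CPM in ire-1 cold and 6.58, 12.3 and 10.05 CPM in ire-1 control, against 18.7, 34 and 28.8 CPM in WT cold and 16.5, 15.1 and 19.1 CPM in WT control. Its ire-1 control libraries lay below the other 9, and the difference was 0.69 ± 0.42.

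**Figure D3:**
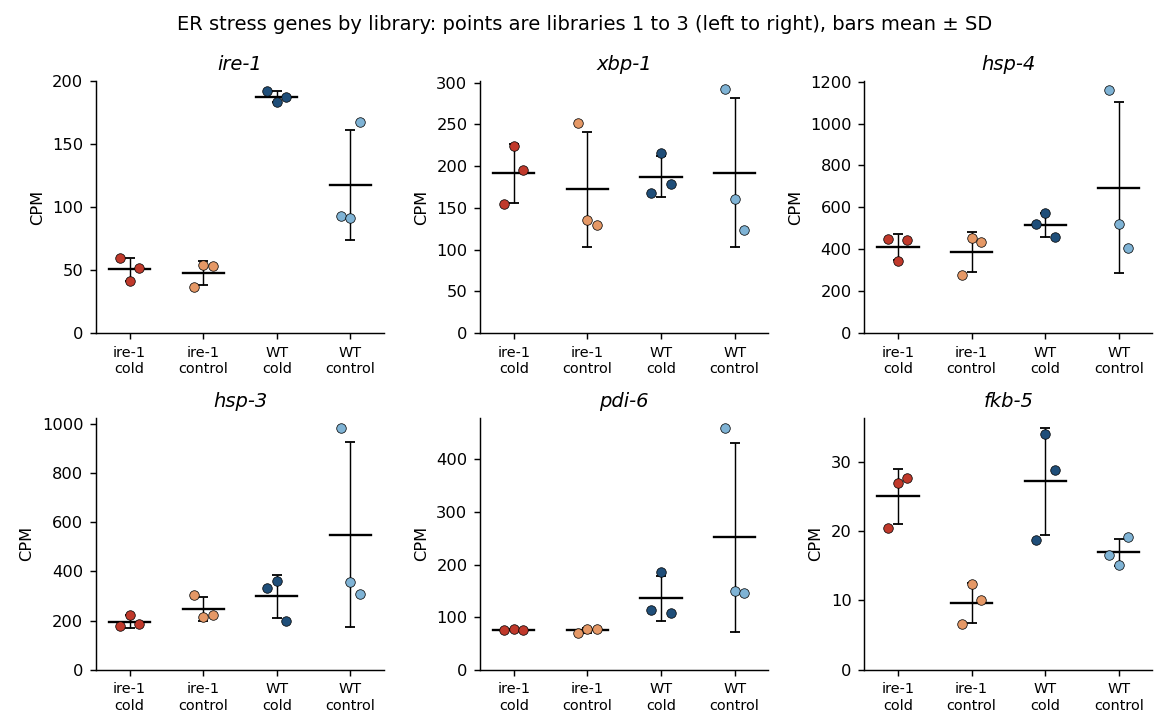
Levels in CPM (vertical axes, each from 0) of 6 ER stress genes in the 3 libraries of ire-1 cold, ire-1 control, WT cold and WT control; points are libraries, and black bars are the mean ± SD. ire-1 is lower in all 6 mutant libraries, and for hsp-4, hsp-3 and pdi-6 the WT control mean is set by library 1.

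The mutant had the larger cold response by its fitted value at C13G3.1, on chromosome V (11011589 to 11012465), the gene with the third smallest p. It had 19.1, 33.8 and 21.1 CPM in ire-1 cold and 2.76, 4.02 and 3.74 CPM in ire-1 control, against 13.5, 17 and 21.1 CPM in WT cold and 9.33, 7.56 and 8.04 CPM in WT control. Cold libraries lay above control libraries in both strains, and the ire-1 control libraries were the lowest of all. The cold response was 2.81 ± 0.31 in ire-1 and 1.05 ± 0.29 in WT, a difference of 1.76 ± 0.41 (edgeR unadjusted p = 0.00146, adjusted p = 0.996). swt-6, a sugar transporter of the SWEET family, had ire-1 control below the other 9 libraries as well, with a difference of 1.28 ± 0.50. mtl-2, a metallothionein, had a difference of 2.47 ± 0.99, but 1 library, ire-1 cold 1, held 101 CPM against 20.4 and 14.1 CPM in the others of its group.

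The 10 genes that cold raised and the 38 that it lowered in WT of experiment 2, at an adjusted p under 0.05 (0.425% of 11304 genes), gave a view of the cold response that did not use the libraries compared here. In ire-1, the cold response had the same sign as in experiment 2 for 10 of 10 raised and 38 of 38 lowered genes. The response was nearer to 0 in ire-1 than in WT of experiment 1 for 10 of the 10 and 35 of the 38. Among the 500 genes with the smallest p in experiment 2, the response was weaker in the direction of experiment 2, or opposite, in ire-1 relative to WT for 88 of 141 raised and 306 of 359 lowered genes. Over all 14344 tested genes, the ire-1 response was the lower for 5888 and the higher for 8456. The 141 raised genes had a median response of 1.18 in ire-1 and 1.13 in WT, the other way round from the 10. The 10 raised genes had a median response of 2.46 in ire-1 and 3.40 in WT, and the 38 lowered genes −1.26 in ire-1 and −2.08 in WT. Averaged over the 48 genes with the sign of the lowered ones turned, cold shifted the score by 1.64 in ire-1 and by 2.20 in WT. The difference of −0.56 did not pass a two-sided exact permutation test of strain within condition (p = 0.17 over 400 arrangements, smallest possible p 0.005).

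**Figure D4:**
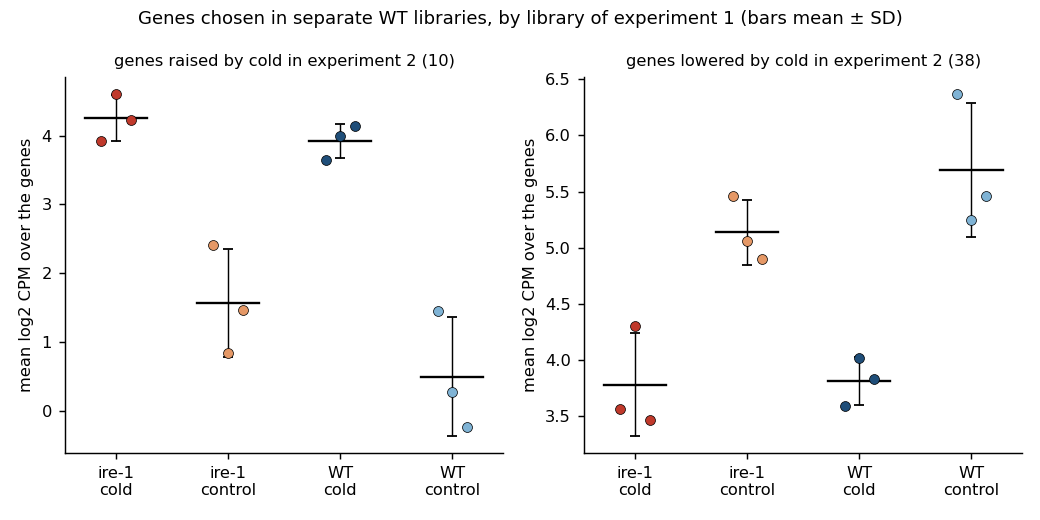
Mean log2 CPM (vertical axes, not from 0) of the 10 genes raised and the 38 genes lowered by cold in WT of experiment 2, in each library of ire-1 cold, ire-1 control, WT cold and WT control of experiment 1; points are libraries, and black bars are the mean ± SD. The cold groups lie at similar levels, 4.25 in ire-1 and 3.92 in WT for raised genes, while in the control the raised genes average 1.57 in ire-1 and 0.50 in WT.

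Most of that difference lay in the control groups. The raised genes averaged 4.25 ± 0.34 in ire-1 cold and 1.57 ± 0.79 in ire-1 control, against 3.92 ± 0.25 in WT cold and 0.50 ± 0.87 in WT control (log2 CPM, SD, n = 3). The lowered genes averaged 3.78 ± 0.46 in ire-1 cold and 5.14 ± 0.29 in ire-1 control, against 3.82 ± 0.21 in WT cold and 5.69 ± 0.59 in WT control. Library levels of ire-1 control overlapped those of WT control for both sets. The score over all 48 genes did not overlap, at −3.82, −3.83 and −3.57 in ire-1 control against −4.74, −4.10 and −4.37 in WT control. In the cold the scores of the strains overlapped. By replicate number, the raised genes averaged 2.40, 0.84 and 1.46 in ire-1 control, against 1.45, 0.28 and −0.24 in WT control, and the lowered genes 5.46, 5.06 and 4.90 in ire-1 control, against 6.37, 5.25 and 5.46 in WT control. Within all 3 same-numbered pairs, ire-1 control was the higher for raised genes and the lower for lowered genes.

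Among the raised genes, zip-10, a bZIP transcription factor tied to death after cold exposure, had 35.1, 40.4 and 51.6 CPM in ire-1 cold and 9.86, 3.58 and 13.3 CPM in ire-1 control, against 24.8, 22.5 and 33.3 CPM in WT cold and 8.74, 2.34 and 1.80 CPM in WT control. Cold libraries were above control libraries in both strains, and the highest levels of all were in ire-1 cold. The cold response was 2.25 ± 0.62 in ire-1 and 2.65 ± 0.63 in WT, a difference of −0.40 ± 0.84 (edgeR unadjusted p = 0.645). F19B10.13, named after its values were seen, had a cold response of 4.62 ± 0.53 in ire-1 and 5.12 ± 0.55 in WT. kreg-1 and srr-6, from the list of cold survival genes, had cold responses of 3.90 ± 0.41 and 5.28 ± 1.03 in ire-1 and of 4.53 ± 0.43 and 3.57 ± 0.95 in WT.

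Y58A7A.4 was the raised gene with the smallest p for a weaker mutant response, and it was named after its values were seen. It had 16, 47.6 and 20.5 CPM in ire-1 cold and 5.05, 0.885 and 2.29 CPM in ire-1 control, against 7.29, 16.2 and 14.8 CPM in WT cold and 0.256, 0.225 and 0.212 CPM in WT control. All 3 WT control libraries were at a few reads, while ire-1 control was higher in each library. The cold response was 3.35 ± 0.65 in ire-1 and 5.76 ± 0.75 in WT, a difference of −2.41 ± 0.88 (edgeR unadjusted p = 0.0201). The neighbouring gene Y58A7A.5, also named after its values were seen, had 33.2, 96.1 and 62.5 CPM in ire-1 cold and 19.4, 5.23 and 10.12 CPM in ire-1 control, against 18.6, 38.1 and 39.8 CPM in WT cold and 5.67, 1.49 and 1.48 CPM in WT control, a difference of −1.02 ± 0.90. Among the lowered genes, acs-5, an acyl-CoA synthetase named after its values were seen, had a difference of 1.42 ± 0.55, and nhr-114, a nuclear hormone receptor, of 1.26 ± 0.60.

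Genes below 0 were fewer at that unadjusted p. The 23 genes below 0 at an unadjusted p under 0.05 had a median cold response of −0.50 in ire-1 and 1.58 in WT. For 14 of them the 3 WT control libraries lay below the other 9 (1.44% of all genes). These genes too were chosen by the contrast, which favours such values. pde-2, a cyclic nucleotide phosphodiesterase named after its values were seen, had 208, 191 and 203 CPM in ire-1 cold and 175, 183 and 194 CPM in ire-1 control, against 227, 217 and 168 CPM in WT cold and 107, 104 and 160 CPM in WT control. WT control was lowest, and the difference was −0.59 ± 0.26. idhg-1, a subunit of mitochondrial isocitrate dehydrogenase, was the single gene that met the rule for leading genes below 0, at −0.26 ± 0.16 (edgeR unadjusted p = 0.121).

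The housekeeping and germline lists had small medians of either sign. Of 39 tested germline, meiosis and oocyte genes, 6 had a difference above 0, with a median of −0.23, and the meiotic gene syp-1 had −0.59 ± 0.27. Of 33 proteasome subunits, 8 were above 0, with a median of −0.11, and rpn-8 had −0.45 ± 0.25. Cytosolic ribosomal protein genes were above 0 in 80 of 81, with a median of 0.25, and 72 of the 81 lay above the all-gene median of 0.12. In 11 of the 81 the ire-1 control libraries lay below the other 9, a pattern found in 88 of all tested genes (0.613%). The ribosomal median was −0.05 without WT control 2, 0.08 without ire-1 control 1 and 0.04 without the 4 sperm-rich libraries. None of these 3 lists had a member at an unadjusted p under 0.05. The median over all genes depended on the scaling, at 0.02 with RLE factors and 0.22 with upper-quartile factors, beside the 0.12 given above. The germline and proteasome medians were below 0 under all 3 scalings but at 0.04 and 0.05 without WT control 1, and the median of the Δ9 desaturase list changed sign, at −0.09 with RLE factors and 0.09 with upper-quartile factors.

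Cuticle collagens and sperm genes had high medians that changed sign with single libraries. Collagens had 121 of 128 tested members above 0 and a median of 1.23, but only 1 was above 0 at an unadjusted p under 0.05, the median was −0.97 without ire-1 cold 2, −0.16 without WT control 1 and 2.24 without ire-1 control 1, and it was −0.12 without the 4 sperm-rich libraries. sqt-3, a cuticle collagen, was that member, with 5.84, 15.7 and 10.6 CPM in ire-1 cold and 17.9, 10.7 and 21.9 CPM in ire-1 control, against 1.28, 1.37 and 2.79 CPM in WT cold and 12.5, 6.80 and 8.99 CPM in WT control, a difference of 1.73 ± 0.65. Sperm genes had 90 of 95 tested members above 0 and a median of 1.61, which was −4.01 without WT control 1, −2.57 without ire-1 cold 2, 5.18 without ire-1 control 1 and −1.55 without the sperm-rich libraries.

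**Figure D5:**
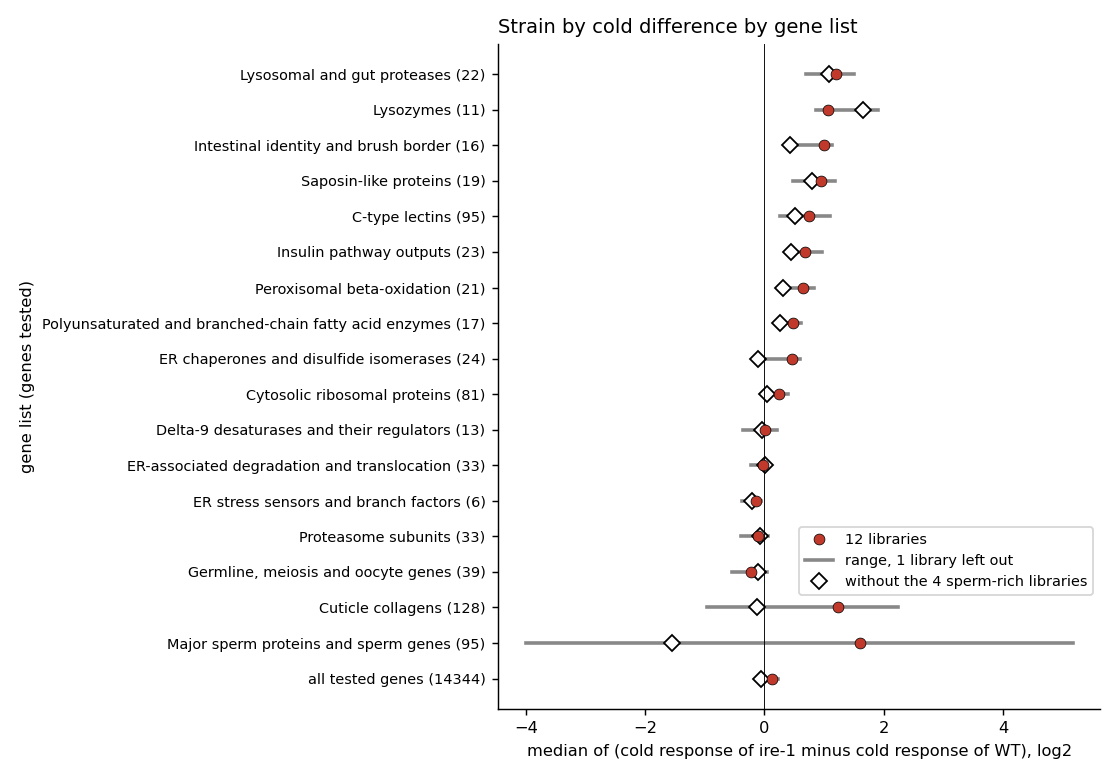
Median strain by cold difference (log2, horizontal axis) of 17 gene lists and of all tested genes, with the number of tested genes in brackets; red circles use all 12 libraries, grey bars span the medians with 1 library left out, and open diamonds leave out the 4 sperm-rich libraries. The protease, lysozyme and saposin-like lists stay above 0 in each of these, while collagens and sperm genes cross 0. The intestinal, C-type lectin, insulin output, peroxisomal and polyunsaturated lists also stay above 0. So do lists not drawn, among them transthyretin-related proteins (median 0.72), iron and metal homeostasis (0.61) and UDP-glucuronosyltransferases (0.71).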

How the data were processed

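Poly(A)-selected RNA of whole worms was sequenced in 18 libraries, described in the deposit as biological replicates. The authors deposited raw read counts per gene for each experiment, 1 column per library, over 46748 identifiers. bcl2fastq, STAR 2.5.0a, HTSeq and the build WBcel235 are named in the submitters' processing notes. No source used here gives the annotation release or the strand setting, so overlapping or antisense genes and close copies may share reads. Columns were joined to libraries by the names in the labels. Symbols (43693 identifiers) and positions came from Ensembl 115 and RefSeq name tables for WBcel235. Total counts were 20621965 to 29518450, and no pair of libraries in a group was near-identical (smallest chi-square per degree of freedom 15.5).

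The test was edgeR's quasi-likelihood F (edgeR 4.0.16, R 4.3.3) with TMM factors. filterByExpr asked for counts of 10 and totals of 15. The model had 4 group means and no block, and Benjamini-Hochberg adjustment over 14344 genes at 0.05. The code was tested on simulated data. There it called 0 of 68 genes with a log2 difference of 1, 21 of 66 with 2 and 50 of 66 with 4. It also called 1 unchanged gene. The changed genes all had mean fitted counts over 50, and the simulated libraries shared no variation. Recovery in the data, with many genes at lower counts, was not measured. The members, the 43 gene lists and the comparison were chosen with earlier results of these data known. List members not found numbered 17. The rule for named genes took the ER stress sensors, both BiP genes, zip-10 and the 3 desaturases FAT-5 to FAT-7. To these it added up to 12 genes per direction by unadjusted p, a group mean of 10 CPM or more, the same sign without each library and cold-minus-control differences that did not overlap between strains. Up to 3 genes per list with the smallest p and at least 10 CPM completed it. The cold score used log2 CPM with a prior count of 2.

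After removing group means, same-numbered ire-1 and WT libraries of a condition had correlations of 0.338 to 0.891, above 0.1 in 6 of 6 pairs. Different-numbered ones of a condition had correlations of −0.813 to 0.755. The sperm-rich libraries share a number within each condition, so pairing and sperm level cannot be told apart here. By this check of the data, and no label, numbers were treated as pairing the strains in the alternatives with a block within condition. The main fit had no block, so the p-values and standard errors given for genes do not use this pairing. Alternatives covered RLE and upper-quartile factors, 2 other filters, DESeq2 1.42.0, limma-voom (limma 3.58.1), replicate blocks, all 18 libraries, a sperm covariate, and leaving out libraries.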

Additional observations from a re-analysis of the deposited data

Results flagged for a closer look

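asp-13 was picked out because the difference between the strains' cold responses passed an adjusted test in a second tool. DESeq2 gave an adjusted p of 0.017 for a log2 difference of 3.27, while edgeR gave 3.29 ± 0.69 with an adjusted p of 0.996. Over all alternatives its log2 difference ran from 2.89 to 4.40 and its adjusted p from 0.017 to 1.0. Leaving out the 4 sperm-rich libraries or any 1 library did not change its sign. Groups of 3 libraries were too small to be searched for outlying samples.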

How the results depend on the processing

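The count of genes called for the strain by cold difference was 0 under each alternative except DESeq2, which called 1. The count at an unadjusted p under 0.05 was 197 and became 305 with no filter on low counts, 777 with the sperm level as a covariate and 373 without the 4 sperm-rich libraries. It ran from 123 to 955 when 1 library was left out. With the replicate number as a block within condition it was 835, and with an additive replicate block 188. For the strain difference itself, the block within condition called 390 genes in the control and 22 in the cold, against 9 and 2 with no block. The cause of these moves was not tested.

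The cold score kept its sign under every alternative run, from −0.39 to −0.72 when 1 library was left out and at −0.34 without the sperm-rich libraries. Without the sperm-rich libraries, the exact permutation test of strain within condition had a smallest possible p of 0.0556 (p = 0.444). Another exact test permuted condition labels among the strain differences of same-numbered libraries, with a smallest possible p of 0.1 (p = 0.2). Neither version could pass the threshold. Splitting the 500-gene version by direction was chosen after seeing the data and gave −0.18 for raised and −0.44 for lowered genes.

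Of 72 genes named, 64 kept their sign in all alternatives. The value for xbp-1 was −0.045 with all 18 libraries, and without the 4 sperm-rich libraries it was −0.052 for hsp-3, −0.15 for hsp-4 and −0.068 for fat-6. With 1 library left out, the range was −0.25 to 0.42 for xbp-1, −0.48 to 0.035 for pek-1, −0.35 to 1.10 for atf-4, −0.20 to 0.82 for hsp-3, −0.092 to 0.78 for hsp-4, −0.14 to 1.22 for fat-6, −1.47 to 0.0070 for zip-10 and −0.90 to 2.22 for srr-6. Below about 1 CPM, counting error adds to the spread between libraries.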
